A study of Sus scrofa with 4 samples.

Results

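Acute-phase and secreted inflammation genes were followed in porcine intramuscular fat cells through differentiation and through stimulation with TNF-α or serotonin. The set held 8 genes, namely SAA3, CHI3L1, LCN2, HP, PTX3, A2M, ITIH4 and CP, and it was selected on the measured levels of these genes over the 4 arrays, so its ratios are given as a description. Members were the probes whose gene name on the array equalled a member. By that name 6 genes were found. SAA3 was found through its transcript accession, because the array lists it under a LOC number and describes it as serum amyloid A2. PTX3 had no probe by name or accession and is not analysed here. In all 7 of the 8 genes were measured, by 23 of 43603 probes, on an array that carries 34876 gene names.

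The cells were PIP, a preadipocyte line from the longissimus thoracis muscle of a Duroc pig, so all 4 conditions share 1 line. PIP cells were kept in growth medium. The other cells were pMA, mature adipocytes made from PIP by 4 days in a medium with insulin (50 ng/ml), dexamethasone (0.25 µM), octanoate (2 mM) and oleate (200 µM), and they were left unstimulated or were given TNF-α (2.5 µg/ml) or serotonin (100 µM) for 12 h. Each condition had 1 array of pooled RNA, so array and condition cannot be told apart, no difference has a replicate check, and no test was made. The unstimulated pMA, the reference of both stimulations and the outcome of differentiation, is the same array throughout.

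Acute-phase proteins are secreted, above all by the liver, when cytokines such as TNF-α, IL-1 and IL-6 signal injury or infection. Fat cells make several of them too. SAA3 is a serum amyloid A, a small protein carried on high-density lipoprotein and known as an extrahepatic form made by adipose tissue. CHI3L1 is a chitin-binding lectin without enzyme activity, LCN2 binds bacterial siderophores and so withholds iron, HP binds free haemoglobin, CP is a copper-carrying ferroxidase, and PTX3 is a long pentraxin made outside the liver. A2M traps proteases, and ITIH4 is an inter-alpha-trypsin inhibitor heavy chain that is a main acute-phase protein of pigs. In human blood A2M is not a strong acute-phase protein.

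The probes that carry the largest differences are 60-base oligonucleotides, copied here 5′ to 3′ from the array files. Of the 5 SAA3 probes 3 overlap, with capitals for the stretch of 35 bases that all of them share, whereas the other pair is 1 sequence spotted under separate probe names. The letters outside the shared stretch are not the same in the 3 overlapping probes. They are shown because the overlapping probes and the repeated sequence differ in the size of the TNF-α ratio.
SAA3 probe A_72_P760975: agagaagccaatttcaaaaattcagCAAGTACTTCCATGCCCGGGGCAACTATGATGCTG
SAA3 probe A_72_P759880: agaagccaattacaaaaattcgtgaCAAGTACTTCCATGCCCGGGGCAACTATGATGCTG
SAA3 probe A_72_P766152: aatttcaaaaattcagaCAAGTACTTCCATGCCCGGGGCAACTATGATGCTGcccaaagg
SAA3 probes A_72_P165616 and A_72_P441669: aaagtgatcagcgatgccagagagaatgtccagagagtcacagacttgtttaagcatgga

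The fainter of the 2 CHI3L1 probes and the single sequence behind both LCN2 probes are shown for the members that, beside SAA3, passed 2-fold by 2 probes. No part of either is marked by capitals.
CHI3L1 probe A_72_P511075: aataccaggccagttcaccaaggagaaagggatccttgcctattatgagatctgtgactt
LCN2 probes A_72_P000426 and A_72_P563459: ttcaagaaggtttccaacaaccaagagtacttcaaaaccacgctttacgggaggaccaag

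Levels are log2 intensities from which each array's 75th percentile was subtracted, so a level of 0 is that percentile. The 75th percentile itself lay between 478.6 and 565.6 intensity units, between 56.5% and 66.0% of the spots were well above background, and no spot was saturated. A probe is called dim where the array software did not find it well above background. Where 1 of the arrays compared was dim, the dim level was set no lower than the faintest level well above background on its array, between -5.25 and -4.64. The ratio is then called a lower bound. Some dim readings lay above that faintest level and were used as they stood. Such a ratio is an uncertain value against a dim reading and not a strict bound, which is said where it applies. Where both were dim, or the dim level used was not below the other level, no ratio was formed. Each gene is given by its brightest probe, the one whose level averaged over the 4 arrays was highest. Spots of the same probe repeated on an array varied with a standard deviation of 0.11 to 0.18, which gives 0.21 to 0.26 for a ratio. This technical SD rests on 24 to 30 probes and covers only noise within an array.

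SAA3 was far higher after TNF-α than in unstimulated pMA, and it was also higher in pMA than in PIP cells. The level of its brightest probe, A_72_P165616, was 0.11 in PIP cells, 3.88 in pMA, 9.57 after TNF-α and 5.01 after serotonin. The lowest level was thus in the preadipocytes and the highest after TNF-α, with the serotonin array above the unstimulated one. From PIP to pMA the log2 ratio was 3.77, or 13.6-fold, which ranked 7 from the top among 5035 gene symbols measured on both arrays. After TNF-α it was 5.69, or 51.6-fold, which ranked 2 of 5201. After serotonin it was 1.13, or 2.19-fold, which ranked 89 of 5151. Lower RNA per cell and fewer cells of a type cannot be told apart in bulk RNA, for SAA3 or any other gene here.

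The 5 SAA3 probes gave the same direction in all 4 comparisons, but not the same size after TNF-α. The level of A_72_P441669, which repeats the sequence of the brightest probe, was 0.01, 3.76, 9.59 and 4.96 in PIP, pMA, TNF-α and serotonin. The overlapping probe A_72_P759880 read -1.57, 2.09, 9.01 and 3.17, A_72_P766152 read -2.03, 1.74, 8.90 and 2.83, and A_72_P760975 read -2.33, 1.12, 8.70 and 2.31. All 20 of these readings were well above background. The log2 ratio of TNF-α to pMA was 5.69 and 5.83 for the repeated sequence, and 6.91, 7.16 and 7.57 for the overlapping probes, so the representative probe gave the smallest value. On the TNF-α array the intensity of the representative probe was 423747, where the highest of any spot was 496252, and whether the top of the intensity scale bears on the smaller ratio was not tested. The same division was seen for serotonin against TNF-α, which shares the TNF-α array, at -4.56 to -6.39. The comparisons without that array differed less between probes, with 3.45 to 3.78 for pMA against PIP and 1.08 to 1.20 for serotonin against pMA. The probes list up to 2 Ensembl transcripts each, and signal from near-identical serum amyloid A genes cannot be separated by them.

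CHI3L1, the chitin-binding lectin, was far higher after TNF-α than on the other 3 arrays. The level of its brighter probe, A_72_P302864, was 2.57 in PIP cells, 3.05 in pMA, 8.28 after TNF-α and 3.11 after serotonin. The other probe, shown above, read -0.29, 0.37, 5.86 and 0.32. Both were well above background on every array, and the TNF-α array stood apart in both. The log2 ratio of TNF-α to pMA was 5.24, or 37.8-fold, which ranked 4 of 5201, and it was 5.48 by the second probe. Serotonin against pMA was 0.06 and -0.06 by the 2 probes, within 1 technical SD of 0. Differentiation gave 0.47 and 0.66, which is 1.39-fold and 1.58-fold.

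**Figure D1:**
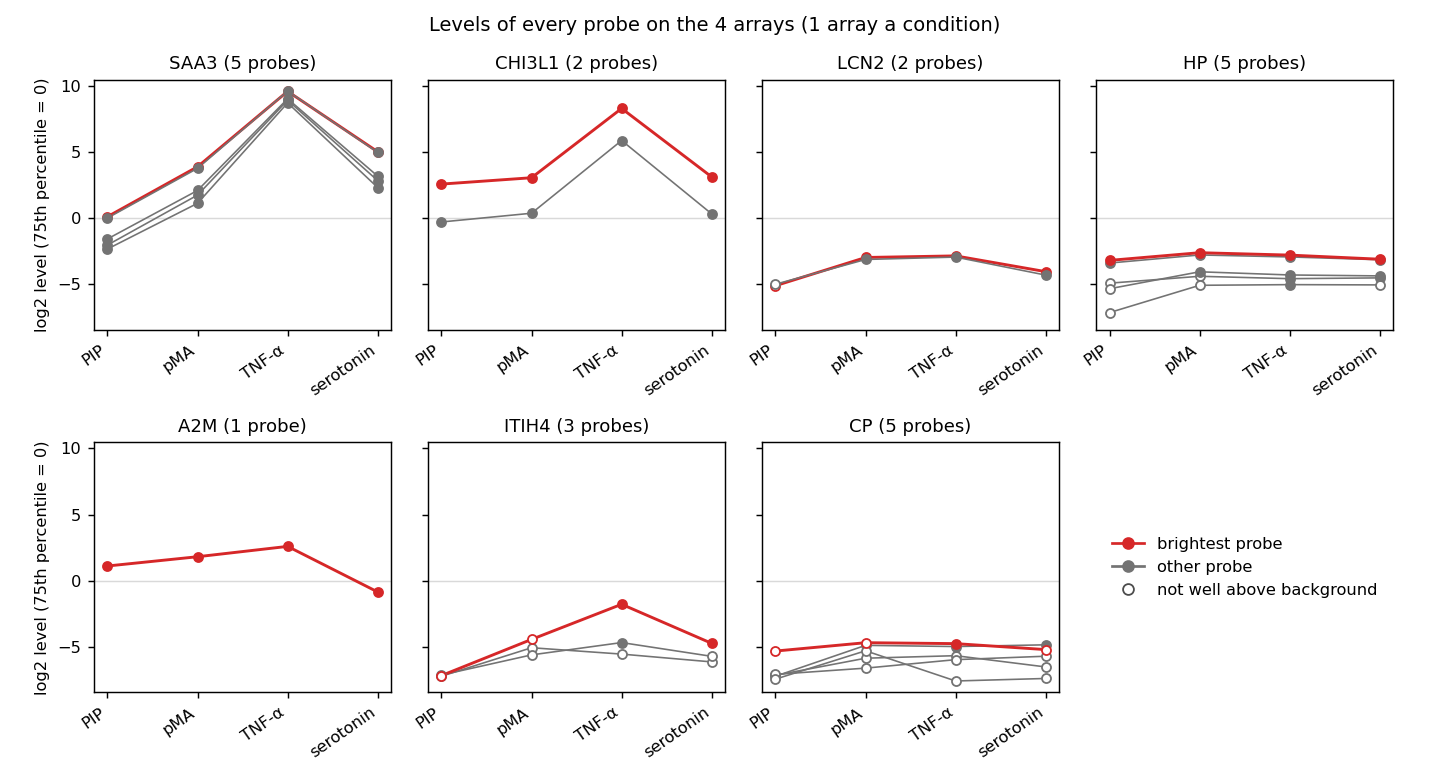
Log2 level (75th percentile of each array = 0) of each of the 23 probes on the 4 arrays, 1 panel a gene, with the brightest probe in red, other probes in grey and open circles where a probe was dim. SAA3 and CHI3L1 peak on the TNF-α array by every probe, and A2M is lowest on the serotonin array, at -0.84.

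LCN2, the siderophore-binding lipocalin, was near the background and differed with differentiation and with serotonin, not with TNF-α. The level of A_72_P000426 was -5.10 in PIP cells, where it was dim, -2.97 in pMA, -2.85 after TNF-α and -4.04 after serotonin. The probe A_72_P563459, of the same sequence, read -4.99 (dim), -3.12, -2.94 and -4.30. The unstimulated and TNF-α arrays were alike, and the serotonin array lay between them and PIP cells. LCN2 was 4.37-fold higher in pMA than in PIP cells, or 3.66-fold by the second probe. Both dim PIP readings lay above the faintest level of -5.13 on that array. These are therefore ratios to a dim reading and not strict bounds. After serotonin the log2 ratio to pMA was -1.06, or 2.09-fold lower, and -1.18 by the second probe. After TNF-α it was 0.13 and 0.18, within 1 technical SD of 0. The intensities behind these ratios were small, 34.4 to 77.6 units for the brighter probe on the 3 pMA arrays. As an alternative, a normexp background correction replaced that of the array software, with 50 added to each intensity. LCN2 then no longer passed 2-fold, at 0.67 for pMA against PIP and -0.58 for serotonin against pMA. The added 50 is of the size of these intensities and by itself draws such ratios towards 0. This setting therefore cannot tell whether LCN2 differed. With scaling to bright spike-in controls the ratio of serotonin to pMA was -0.96, also short of 2-fold.

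HP, the haemoglobin-binding protein, varied little. The level of its brightest probe, A_72_P667554, was -3.19 in PIP cells, -2.61 in pMA, -2.79 after TNF-α and -3.10 after serotonin, and A_72_P657000 read -3.39, -2.78, -2.93 and -3.14. The highest level was in unstimulated pMA by both. The ratio of pMA to PIP was 0.58, that of TNF-α to pMA -0.18 and that of serotonin to pMA -0.49, that is 1.13-fold lower after TNF-α and 1.41-fold lower after serotonin. None of these reached 2-fold by the representative probe. The 3 fainter HP probes were dim on 1 to 3 of the arrays, and the single ratio past 2-fold among them was a lower bound of 2.11-fold in pMA against PIP.

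CP, the ferroxidase, was at the edge of detection. Its probe A_72_P796449 was well above background only after TNF-α, at -4.74, and A_72_P716088 only after TNF-α, at -4.96, and serotonin, at -4.83. The other 3 CP probes were dim on every array. No CP probe gave a ratio to unstimulated pMA, and TNF-α and serotonin differed by 0.13 in the single probe measured on both.

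A2M, the protease trap, was the member that lay farthest below unstimulated pMA on either stimulated array. The level of its only probe, A_72_P069881, was 1.12 in PIP cells, 1.82 in pMA, 2.60 after TNF-α and -0.84 after serotonin. The serotonin array was the lowest and the TNF-α array the highest. Serotonin against pMA had a log2 ratio of -2.66, or 6.31-fold lower, which ranked 11 from the bottom of 5151 gene symbols. TNF-α against pMA was 0.77, or 1.71-fold higher, 3.0 times the technical SD. Between the stimulated arrays A2M was 10.8-fold lower after serotonin. With 1 probe, no second sequence bears on these values, and the array lists 2 Ensembl transcripts for it.

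ITIH4, the inter-alpha-trypsin inhibitor heavy chain, was clearly measured on the TNF-α array and faint otherwise. The level of its brightest probe, A_72_P706463, was -7.15 in PIP cells and -4.42 in pMA, dim on both, then -1.77 after TNF-α and -4.72 after serotonin. The TNF-α array stood clear of the rest. Against pMA the TNF-α level was 6.30-fold higher. The dim pMA reading lay above the faintest level of -4.64 on that array, so this is a ratio to a dim reading and not a strict bound. The level was 7.78-fold lower after serotonin than after TNF-α. The other probes did not show this size. A_72_P232272 was well above background only after TNF-α, at -4.66, which gave no ratio to pMA, and A_72_P164666 was dim on every array, so the difference rests on 1 of 3 probes. The array lists no Ensembl transcript for the brightest probe and 1 for each of the others. With the normexp correction the log2 ratio of TNF-α to pMA fell from 2.66 to 1.11.

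**Figure D2:**
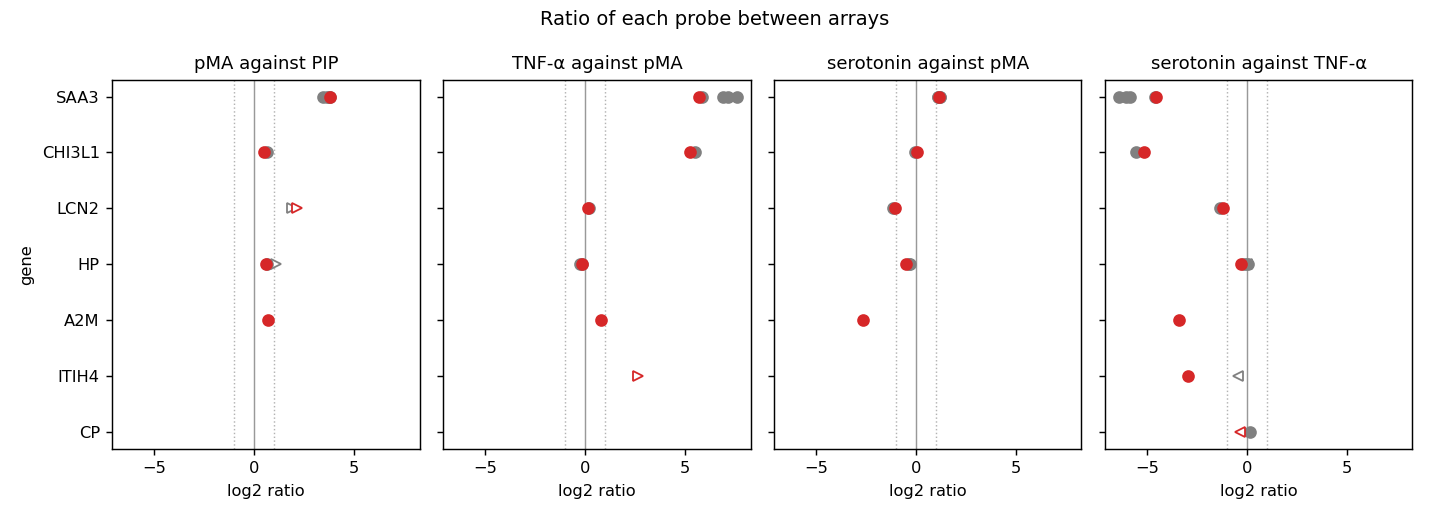
Log2 ratio of every probe (1 symbol each, brightest probe of a gene in red) in the 4 comparisons, with open triangles where 1 array was dim and dotted lines at 2-fold. After TNF-α the SAA3 and CHI3L1 probes lie between 5.24 and 7.57, while after serotonin A2M lies at -2.66.

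Counted over the genes, 2 of the 5 members with a ratio were at least 2-fold higher in pMA than in PIP cells, SAA3 and LCN2, and none was that much lower. Among all 18647 gene names with a ratio, 9.94% were higher and 3.56% lower by 2-fold or more. On the TNF-α array 3 of 6 members were at least 2-fold higher than in pMA, SAA3, CHI3L1 and ITIH4, and none lower, where 2.21% of 19797 gene names were higher and 1.35% lower. After serotonin SAA3 was higher and LCN2 and A2M were lower, that is 1 and 2 of 5 members, where 2.09% of 19111 gene names were higher and 4.73% lower. Because the genes were chosen with these ratios known, nothing is read from the shares.

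Set directly against each other, the stimulated arrays differed most, among the members, in CHI3L1 and SAA3. Serotonin was below TNF-α by at least 2-fold in 5 of 7 members and above it in none, where 1.83% of 21878 gene names were higher and 5.06% lower. CHI3L1 was 36.2-fold lower, SAA3 23.5-fold, A2M 10.8-fold, ITIH4 7.78-fold and LCN2 2.28-fold. These sizes and their order depended on the probes and the background correction. By the median over probes SAA3, at -5.84, lay beyond CHI3L1, at -5.36, and ITIH4 was at -1.71. With normexp ITIH4 was at -1.39 and LCN2, at -0.55, no longer passed 2-fold. HP differed by -0.32 on the log2 scale. The median log2 ratio of the members measured was -3.20 here, against -0.04 for all gene names, and it was 0.64 for pMA against PIP, 0.77 for TNF-α and -0.49 for serotonin, against 0.12, 0.01 and 0.01. These medians are over 4 to 6 genes.

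**Figure D3:**
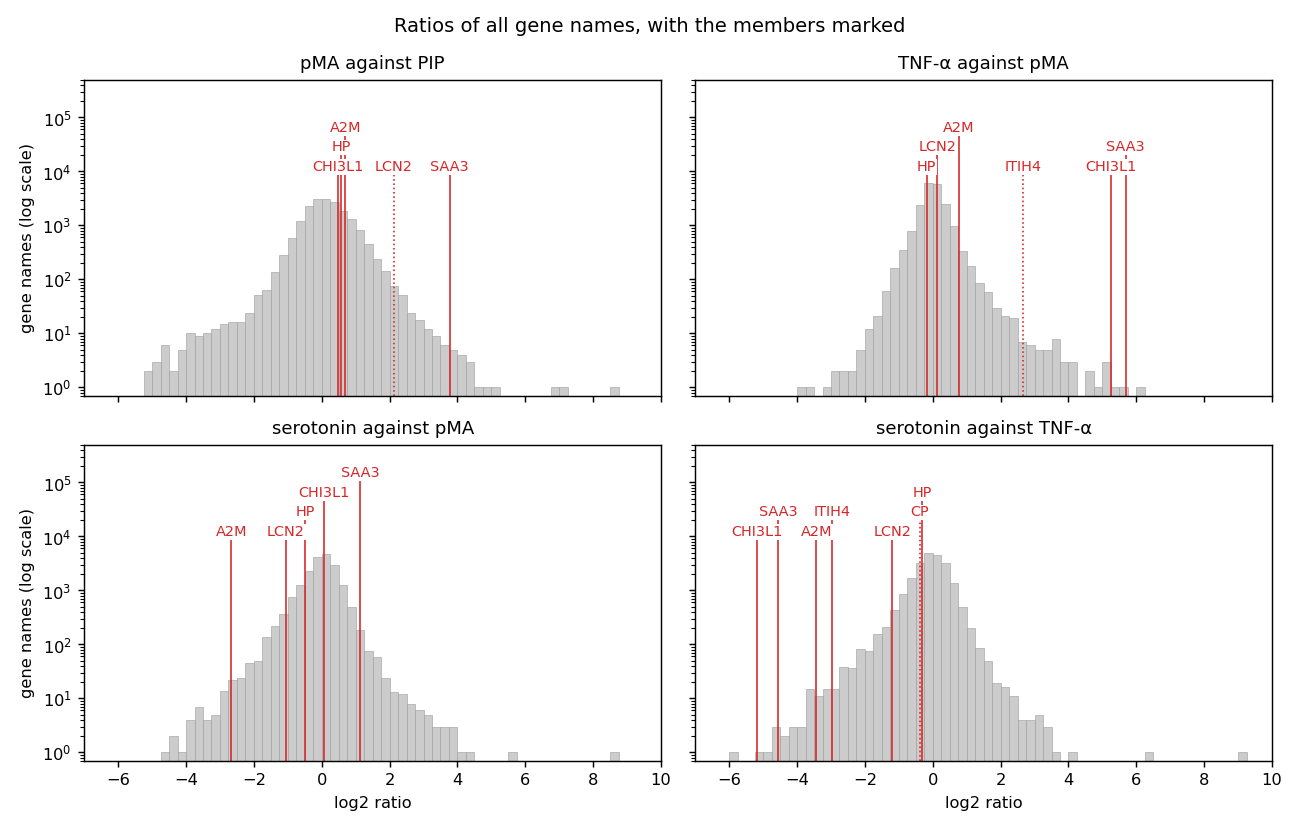
Number of gene names (log axis) by log2 ratio in each comparison, in steps of 0.25, with the representative probe of each member as a red line. The line is dotted where a compared array was dim. SAA3 at 5.69 and CHI3L1 at 5.24 lie in the upper tail after TNF-α, and HP at -0.18 and LCN2 at 0.13 lie near the middle.

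The scaling set how many genes appeared higher or lower. For pMA against PIP the median over all gene names was 0.12 with the 75th percentile, 0.04 after quantile normalization, -0.22 with scaling to the median and 0.52 with scaling to bright spike-in controls. The share of higher values among gene names past 2-fold was 73.6%, 54.7%, 34.1% and 93.0% in the same order. For TNF-α against pMA that share was 62.1%, 49.3%, 50.2% and 72.5%, for serotonin against pMA 30.6%, 34.2%, 35.3% and 44.5%, and for serotonin against TNF-α 26.5%, 39.5%, 40.4% and 29.5%. The ratio of SAA3 in pMA against PIP stayed between 3.42 and 4.15 over all settings tried, and those of CHI3L1, HP and A2M stayed above 0 but passed 2-fold only for A2M, at 1.08, with the spike-in controls.

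**Figure D4:**
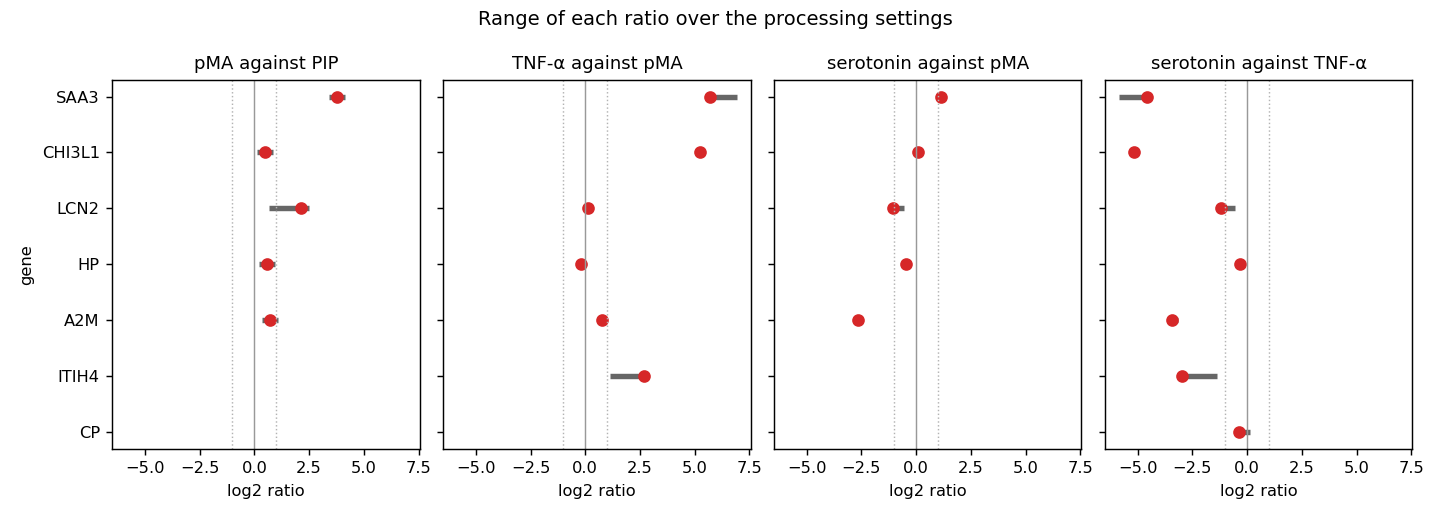
Log2 ratio of each member in the 4 comparisons, with a red point for the value reported and a grey bar for its range over the processing settings; dotted lines mark 2-fold. The longest bars belong to LCN2 in pMA against PIP, from 0.67 to 2.51, and to ITIH4 in TNF-α against pMA, from 1.11 to 2.73.

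For the members well above background on all 4 arrays, the gene symbols with the most similar pattern were found by the Euclidean distance of their levels on the other 3 arrays relative to unstimulated pMA, among 5008 symbols. Nearest to SAA3 were AGT, the precursor of angiotensin, at 2.83, FCHO1 at 3.33 and CHI3L1 at 3.49, against a median distance of 6.97 over all symbols. SAA3 therefore had no close neighbour. Nearest to CHI3L1 were FCHO1 at 0.81, CSN2 at 1.61 and NDUFAB1 at 1.76 (median 5.34). FCHO1 lay 5.03 above unstimulated pMA after TNF-α, where CHI3L1 lay 5.24 above it. Nearest to A2M were PTCHD1 at 1.05, LDB3 at 1.12 and RGS2 at 1.13 (median 2.96). HP, with its small differences, had many near neighbours, the first being RERG at 0.07, KLHL7 at 0.10 and GALM at 0.11 (median 0.98). These are distances over 3 values of 1 array each.

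Among all gene names 9.94% were at least 2-fold higher in pMA than in PIP cells, 2.21% after TNF-α and 2.09% after serotonin. Lower by as much were 3.56%, 1.35% and 4.73%. Between the stimulated arrays 1.83% were higher and 5.06% lower after serotonin. These shares belong beside the list counts that follow. Of 30 other genes listed as acute-phase proteins that rise, 20 had a probe under these names. After TNF-α 4 of 17 with a ratio were at least 2-fold higher and none lower. The complement components C3, at 6.09, and CFB, at 5.19, had the highest log2 ratios, while HPX, the haem-binding protein, at -0.54, and SERPINA3-3, at -0.29, had the lowest. The other genes past 2-fold, named after their values were seen, were the complement inhibitor SERPING1, at 1.24, and ITIH2, another inter-alpha-trypsin inhibitor heavy chain, with a lower bound of 3.28. The level of the brighter ITIH2 probe was -1.36 after TNF-α and -5.46, dim, in pMA, while the other ITIH2 probe was dim on every array. ITIH1 had a ratio of 0.18 by its brightest probe and ITIH3 none. Another ITIH1 probe was well above background only after TNF-α, at -4.86, and the remaining one was dim on every array. CRP, the short pentraxin, had a ratio of -0.08.

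After serotonin 1 of 15 listed genes was at least 2-fold higher, CFB at 1.64, and 1 was lower, SERPING1 at -1.05. SERPINA3-3 was next highest at 0.68 and VNN1 next lowest at -0.85. In pMA against PIP 3 of 14 were higher and none lower, with SERPING1 at 1.94 and HPX at 1.20 highest and HAMP at 0.05 and VNN1 at 0.04 lowest, the number past 2-fold being 1 with scaling to the median and 6 with the spike-in controls. SERPINA3-2, at 1.20, was the other gene past 2-fold. Between the stimulated arrays 4 of 18 were lower after serotonin, with C3 at -5.95 and CFB at -3.55 lowest. SERPINA3-3, at 0.97, and C4BPA, at 0.06, were the highest there. Of 7 genes listed as acute-phase proteins that fall, 6 had a probe and none of 5 with a ratio passed 2-fold in pMA against PIP, after TNF-α or after serotonin. In pMA against PIP ALB, at 0.85, and SERPINA6, at 0.30, were the highest of them and RBP4, at 0.29, and APOA1, at -0.93, the lowest. After TNF-α TF, at 0.39, and APOA1, at 0.37, were highest and RBP4, at -0.05, and SERPINA6, at -0.29, lowest. After serotonin TF, at 0.20, and ALB, at -0.18, were highest and SERPINA6, at -0.46, and APOA1, at -0.68, lowest. Between the stimulated arrays APOA1, at -1.05, was the 1 of 6 lower by 2-fold after serotonin, with RBP4 next at -0.27 and SERPINA6, at -0.16, and ALB, at -0.18, the highest.

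**Figure D5:**
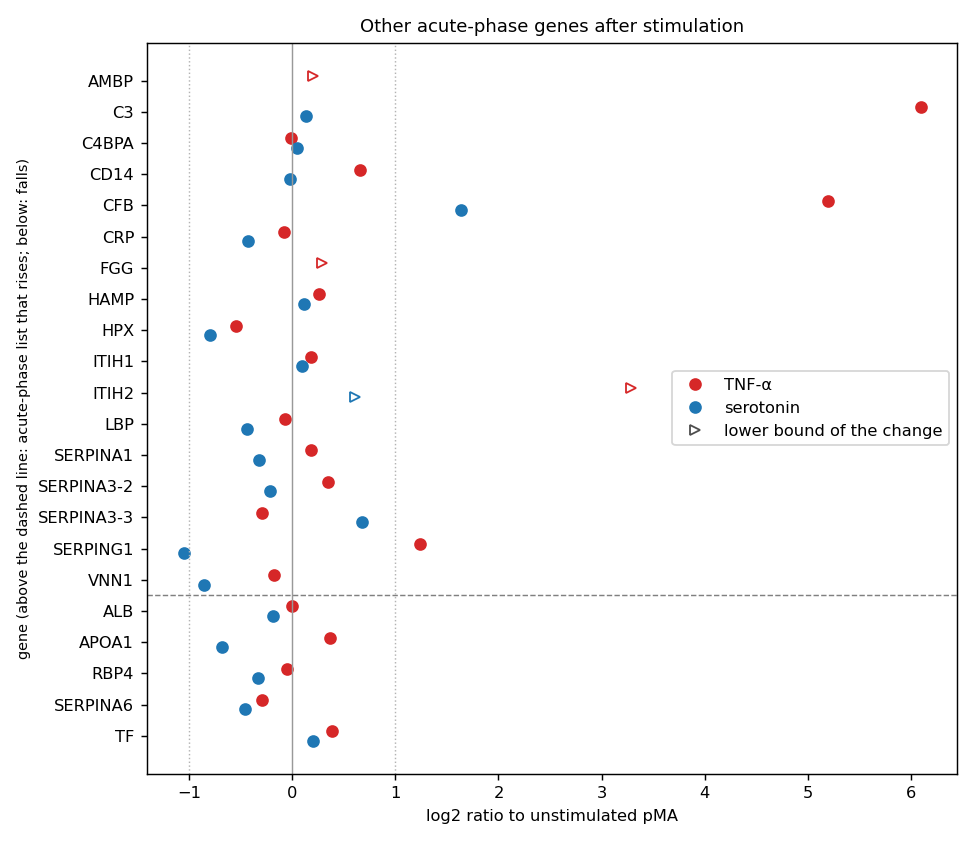
Log2 ratio to unstimulated pMA of the other acute-phase genes that gave a ratio, in red after TNF-α and in blue after serotonin. Open triangles, labelled as lower bounds, mark a dim reading on either array, and dotted lines lie at 2-fold. C3 and CFB lie at 6.09 and 5.19 after TNF-α, apart from most of the list, which lies within 2-fold.

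Of 30 cytokines, receptors and factors known to control acute-phase genes, 24 had a probe. After TNF-α 4 of 23 with a ratio were at least 2-fold higher and none lower: the inhibitor of NF-κB NFKBIA at 3.04, the cytokine IL1A at 2.28, and, named after their values were seen, IL6 at 1.63 and NFKB1 at 1.17. NFKB2, at -0.56, and RELA, at -0.50, were the lowest. After serotonin 4 of 21 were higher, IL1A at 3.79, NFKBIA at 1.97, and, named in the same way, SOCS3 at 1.72 and IL1R1 at 1.08, and 1 was lower, NFKB2 at -1.44, with RELA next at -0.69. SAA3 was the 1 member at least 2-fold higher than in pMA on both stimulated arrays, and IL1A and NFKBIA were the factors of this list of which that held. In pMA against PIP 3 of 21 were higher, NFKB2 at 3.08, OSM at 1.97 and CEBPB at 1.71, and none lower. The counts were 3 higher and 2 lower with scaling to the median and 7 higher and none lower with the spike-in controls. IL6, at -0.83, and IL1A, at -0.80, were lowest. TNF itself had a level of 0.11 in unstimulated pMA and 0.16 after TNF-α. Serotonin was above TNF-α by at least 2-fold in 2 of 23, IL1A at 1.51 and SOCS3 at 1.15, and below it in 2, IL6 at -2.07 and NFKBIA at -1.07.

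Of 24 receptors and binding partners of the 8 proteins, 18 had a probe. CD163, the receptor for haptoglobin bound to haemoglobin, was dim on every array. LRP1, the receptor that clears A2M with its proteases, was higher in pMA than in PIP cells, at 1.82, and had -0.21 after TNF-α and -0.48 after serotonin. SLC22A17, a receptor reported for LCN2, was at -0.53 after TNF-α and -1.39 after serotonin. TLR2, a receptor for serum amyloid A, was dim on the unstimulated array but not on the TNF-α array, with a log2 ratio bounded at 2.58, the 1 gene of 14 past 2-fold there. CD36, a lipid and serum amyloid A receptor, had the highest ratio in pMA against PIP, 5.17, and after serotonin, 1.47. In pMA against PIP 3 of 14 were higher by 2-fold and 1 lower, HSPA5 at -2.0, with FTH1 next lowest at 0.01 among measured ratios. Quantile normalization and scaling to the median turned these counts to 2 higher and 3 lower, and the spike-in controls gave 4 and 1. After serotonin 2 of 13 were higher and 1 lower. The second higher gene was TFRC at 1.27, a ratio to a dim pMA reading that was used as it stood. Among measured ratios TNFAIP6, at 0.69, and HSPA5, at 0.66, were highest after TNF-α, TLR4, at 0.72, was second after serotonin, and SCARB1, at -0.49 and -0.61, was next to SLC22A17 among the lowest in both. Between the stimulated arrays TLR2, at -1.79, was the 1 of 15 past 2-fold, with HSPA5 next at -0.97 and CD36, just short of 2-fold, and TLR4, at 0.90, the highest.

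Markers of adipocytes and of other cell types were read beside these values, although all the cultures came from the PIP line. Of 10 adipocyte markers 8 were well above background on each array, though not the same ones: PLIN1 was dim throughout, ADIPOQ on the 3 pMA arrays and FABP4 in PIP cells. Between pMA and PIP cells 5 of 9 were at least 2-fold higher. Their summed log2 level was 2.67 in PIP cells, 4.30 in pMA, 4.73 after TNF-α and 5.48 after serotonin, but the markers did not move together after serotonin, when LPL (2.41) and CD36 (1.47) were higher than in pMA and FABP4 (-2.77) was lower. Of 4 macrophage markers on the array 3 were well above background on each, with a summed level from 0.72 in PIP cells to 1.67 after TNF-α, and CD163 dim throughout. For TNF-α against pMA CD14 was at 0.66, MRC1 at -0.08 and AIF1 at -0.91. Of 5 neutrophil markers 2 were well above background in PIP cells and 4 on the other arrays, with a summed level from 1.25 to 1.87 and MPO dim throughout. Of 5 hepatocyte markers 2 were well above background in PIP cells, 4 in pMA, 5 after TNF-α and 4 after serotonin, with a summed level from -0.71 to 0.47. The summed level lay from 8.68 to 9.10 for 7 preadipocyte or fibroblast markers, from -1.07 to 0.65 for 4 endothelial markers and from 7.45, after serotonin, to 9.36 for 5 skeletal muscle markers. CDH5 of the endothelial and MYOD1 of the muscle markers were dim throughout. A summed level mostly follows the brightest gene of its list, so it does not compare lists. In pMA VIM alone was at 8.89 and ACTA1 alone at 9.33, with DES next among the muscle markers at 3.26. After serotonin ACTA1 was at 7.40. On the serotonin array, where A2M was lowest, 4.73% of all gene names were at least 2-fold below unstimulated pMA. So were 2 of 6 preadipocyte or fibroblast markers, COL1A1 at -1.41 and DCN at -1.16, with a median of -0.61. In that list PDGFRB, at 0.27, and PDGFRA, at 0.10, were above pMA. Of 4 skeletal muscle markers 2 were as low, ACTA1 at -1.94 and DES at -1.02, while MYOG was at -0.01. The endothelial marker PECAM1, at -1.46, and the neutrophil marker CXCR2, at -2.01, were also past 2-fold lower, and the neutrophil marker S100A8, at 1.76, was higher. The part of other cell types in the ratios of SAA3, CHI3L1, LCN2 and A2M was not tested.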

How the data were processed

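Gene expression was measured on 4 one-colour Agilent porcine arrays, 1 for each condition. The deposited scanner files, made by the authors with Agilent Feature Extraction 10.7.3.1, give a background-corrected intensity per spot, already processed by that software. The methods also describe a mouse array read by GenePix and a two-colour design, which the files do not show. A deposited value table gives, per spot, a linear ratio of the intensity to a constant per array, between 454.58 and 539.90, close to the 75th percentile over all spots. It was used as an alternative. The alternatives, 10 in number, are given in the closing section.

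From the deposited intensity, log2 values were computed with the 75th percentile of the non-control spots subtracted, outlier spots (1 to 12 an array) left out and spots of a probe averaged. Gene names are those of the files, except for 1135 spots renamed through an accession or LOC number in a RefSeq table of Sscrofa11.1. Differences were described at 2-fold, the fold cutoff of the methods, and no test was made. The ratio and bound rules were tested on simulated data in which every dim value lay below the faintest level well above background. That simulation cannot speak to dim readings above that level, as LCN2 and ITIH4 had. Members and gene lists were chosen with earlier results of these data known. Every member is named. From each list, except the cell type markers, which are given by counts and summed levels, the 2 highest and 2 lowest measured ratios are named, and for members well above background on every array the 3 nearest symbols. Other list genes were named for their tie to a member or because a count was small, after their values were seen. Tools were python 3.11.15, numpy 2.4.6, pandas 2.3.3, matplotlib 3.10.9, R 4.3.3 and limma 3.58.1 (normexp, offset 50). The number of arrays limits the precision.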

Additional observations from a re-analysis of the deposited data

How the results depend on the processing

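Of 200 values of single members under the alternatives, 174 lay within 1 technical SD of the value reported, 26 lay farther, and none that had passed 2-fold turned its sign. Part of this count was fixed in advance. For SAA3, CHI3L1, HP and A2M the filters on dim probes and the probe bright on most arrays left probe and value unchanged. The deposited value table differed from the reported scaling almost only by a constant per array. The count is therefore no measure of stability. SAA3 and CHI3L1 after TNF-α stayed past 2-fold under each setting that was run, at 5.61 to 6.91 and 5.16 to 5.36, and A2M after serotonin stayed between -2.70 and -2.44. The number of members past 2-fold in pMA against PIP, reported as 2, was 1 with normexp and 1 with probes well above background on all 4 arrays, where LCN2 has no value. For serotonin against pMA it was 1 in place of 3 at a 4-fold cutoff, and for serotonin against TNF-α it was 3 in place of 5 with probes well above background on all 4 arrays, where LCN2 and ITIH4 have no value. The number of gene names past the cutoff moved by over 1.5 times under these settings. For pMA against PIP, 2516 became 4410 with the spike-in controls, 825 with normexp, 7132 with no filter on dim probes and 342 at a 4-fold cutoff. For TNF-α against pMA, 705 became 267 with normexp, 3239 with no filter, 454 with probes well above background on all 4 arrays and 100 at 4-fold. For serotonin against pMA, 1303 became 577, 3906 and 186 with normexp, no filter and 4-fold. For serotonin against TNF-α, 1508 became 694, 4448 and 273 with the same settings. The stricter or looser limit itself sets the numbers at 4-fold and with no filter. The cause of the others was not tested. No paired analysis was possible because each condition has 1 array, and for the same reason no replicate could be left out. Signal over background limits LCN2, HP, ITIH4 and CP, each of which has a probe that was dim on 1 or more arrays.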
